A study of Homo sapiens with 6 samples.

Results

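The genes described here are 43 genes of the integrated stress response (ISR) and of the unfolded protein response of the endoplasmic reticulum (ER), taken from the 31831 genes of the count table by their symbols. They were sorted into 4 sensors, 24 genes of the ATF4 branch, 9 genes of the ATF6 branch and 6 genes of the XBP1 branch. RNA-seq was run on HK-2 cells, an immortalized line of human renal proximal tubule epithelium, in which hnRNP-F, an RNA-binding protein and splicing regulator, was overexpressed. The 3 HG-NC libraries came from cells given an empty control vector, and the 3 HG-OE libraries from cells given the hnRNP-F construct. Cells of both groups were kept in 30 mM glucose for 72 h, so neither group shows the cells in normal glucose. The methods describe lentiviral delivery and parallel wells of the same line, whereas the labels speak of a control plasmid. The study calls its libraries biological replicates, and p-values here measure the spread between such replicates of 1 cell line.

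In the ISR, kinases such as PERK (encoded by EIF2AK3) and GCN2 (EIF2AK4) phosphorylate the translation factor eIF2alpha. General translation then falls while the transcription factor ATF4 is translated more efficiently, and ATF4 switches on genes for amino acid supply, transfer RNA charging and, with CHOP (encoded by DDIT3), cell death or recovery. In the ER membrane, PERK, IRE1alpha (ERN1) and ATF6 sense unfolded proteins. IRE1alpha splices XBP1 mRNA in the cytosol to make the active factor, and ATF6 is cut by proteases to release its active part. Both factors raise chaperones, folding enzymes and the machinery of ER-associated degradation (ERAD). Proximal tubule cells carry a heavy load of secretory and membrane proteins, and ER stress is a recognized feature of the diabetic kidney. Much of this control acts on translation, cleavage or splicing, none of which a count of reads per gene shows. In particular, spliced and unspliced XBP1 were counted together here.

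DNA elements through which these factors act were looked for in RefSeq promoter windows (GRCh38.p14, 250 bases before to 50 bases after each start), which were found for 38 of the 43 genes. The letters searched on both strands were TGATGNAAN for the ATF4 site (CARE) and TGACGTGG for the XBP1 site (UPRE). For the ER stress element (ERSE) they were CCAAT, 9 bases of any kind and CCACG, and for ERSE-II they were ATTGG, any base and CCACG. A match is a run of letters and not a measured binding site. The 43 genes were chosen as members of these pathways, so a higher share than over all tested genes is no test of the elements. The CARE letters stood in 6 of the 38 genes, which is 15.8% against 2.9% of the 11569 tested genes with a window. ERSE letters stood in 5 genes (13.2% against 0.138%) and ERSE-II letters in 3 genes (7.89% against 0.121%). UPRE letters stood in 1 gene, HYOU1 (2.63% against 1.19%), where they overlap an ERSE-II match. The matches are shown so that their carriers can be set beside the measured changes. CARE letters stood in 4 of 20 ATF4-branch genes with a window, 0 of 8 ATF6-branch genes and 2 of 6 XBP1-branch genes. For the same 3 branches, ERSE letters stood in 0, 4 and 1 genes, ERSE-II letters in 0, 2 and 1, and UPRE letters in 0, 1 and 0. Each line reads 5′ to 3′ on the strand that spells the motif, with the motif in capitals.

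The CARE matches upstream of 4 ATF4-branch genes and of HERPUD1 are as follows. The sixth carrier, CREB3L2, had its match after the start and is not printed.
ASNS, chr7:97872457-97872486, minus strand: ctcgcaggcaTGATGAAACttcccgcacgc
CEBPG, chr19:33374061-33374090, plus strand: gcgcggcgtcTGATGCAACctgccggcaac
CHAC1, chr15:40953251-40953280, minus strand: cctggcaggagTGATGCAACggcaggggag
AARS1, chr16:70289675-70289704, plus strand: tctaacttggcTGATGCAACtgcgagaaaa
HERPUD1, chr16:56931955-56931984, minus strand: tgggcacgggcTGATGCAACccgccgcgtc

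The ERSE matches lay in 4 chaperone genes and in XBP1 itself. The CANX site falls in the windows of 3 annotated starts.
CALR, chr19:12938379-12938408, minus strand: caccgaCCAATGATGGTCGACCACGcgtgg
CANX, chr5:179698773-179698802, plus strand: cccggCCAATCTTCACACTCCACGaagaat
CRELD2, chr22:49918549-49918578, minus strand: tatggcCCAATCCGAGTTCGCCACGagagg
PDIA6, chr2:10812847-10812876, minus strand: ccggaCCAATGAGCCGCAGCCACGgcttgg
XBP1, chr22:28800597-28800626, minus strand: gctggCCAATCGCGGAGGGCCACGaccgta

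The ERSE-II matches were found in HYOU1, which held 2 of them, in SDF2L1 and in HERPUD1.
HYOU1, chr11:119057264-119057293, plus strand: gcgcgtactcATTGGACCACGtcccaggcc
HYOU1, chr11:119057370-119057399, plus strand: tcggcctgggATTGGACCACGtcacggggc
SDF2L1, chr22:21642105-21642134, minus strand: gagggttttgATTGGTCCACGcttccgagg
HERPUD1, chr16:56932016-56932045, plus strand: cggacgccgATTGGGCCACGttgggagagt

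Some facts of the libraries bear on all of these genes. Totals ranged from 25507595 to 29444841 counts per library, and counts scaled to library size by the TMM method (CPM) are used below. HNRNPF, the targeted gene, read 304, 319 and 311 CPM in HG-NC 1, 2 and 3 and 431, 452 and 423 CPM in HG-OE 1, 2 and 3. Its log2 fold change was 0.48 (standard error 0.0388, edgeR adjusted p = 2.80e-07). The methods do not name the species of the overexpressed sequence. They identify it by a database number that is also listed for the vector used in mouse podocytes. The origin of the sequence, human or mouse, was not tested here. Reads from a sequence unlike the human gene may not be counted, so the log2 fold change of 0.48 need not give the full overexpression. Of the proximal tubule transport genes, LRP2, CUBN, SLC34A1 and AQP1 stood under 1 CPM in every library and SLC5A2 at 2.87 to 4.54 CPM. The whole list of 11 proximal tubule markers in the table summed to 610 to 664 CPM in HG-NC and 432 to 480 CPM in HG-OE, nearly all of it PAX8. HG-OE 3 stood apart from HG-OE 1 and 2 on the second principal component. The summed level of 15 hepatocyte markers was 266 to 277 CPM in HG-NC against 462, 464 and 780 CPM in HG-OE 1, 2 and 3, and 13 of the 15 were highest in HG-OE 3. SERPINA1 made up most of this sum, and without it the other 14 summed to 2.00 to 12.2 CPM in HG-NC and to 4.96, 5.26 and 385 CPM in HG-OE 1, 2 and 3. Albumin (ALB) alone read 149 CPM there and at most 2.79 CPM elsewhere. A list of 10 squamous epithelium markers summed to 65.3 to 71.0 CPM in HG-NC against 170 to 253 CPM in HG-OE, and all 10 were highest in HG-OE 3. Without S100A2 the other 9 summed to 6.502 to 8.888 CPM in HG-NC and to 8.62, 6.90 and 72.5 CPM in HG-OE 1, 2 and 3. The part of these transcripts in the results below was not tested, and values without HG-OE 3 are given where they matter. In bulk samples, fewer cells of a type and less RNA per cell cannot be told apart.

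All 43 genes passed the filter on low counts, with means of 108 to 40389 counts per library. By edgeR's quasi-likelihood test, 17 of them had an adjusted p under 0.05 and were higher in HG-OE, 10 had one and were lower, and 16 did not pass. These counts lie close to the background of this comparison, in which 51.8% of the 17142 tested genes passed, 25.9% higher and 25.9% lower. Among the 12365 genes with a mean of at least 100 counts, as all 43 have, 61.9% passed. Of the 43 stress genes 27 were called (62.8%), about as often as other genes at such counts. The 2 groups of libraries did not overlap for 30 of the 43, against 59.0% of all tested genes. Only ERN1 passed with a 2-fold change (1 of 43, against 5.82% of all tested genes, or 2.13% for falls). The median log2 fold change was 0.06 over the 43 genes and 0.01 over all genes tested. Without HG-OE 3, 18 genes were higher and 12 lower.

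**Figure D1:**
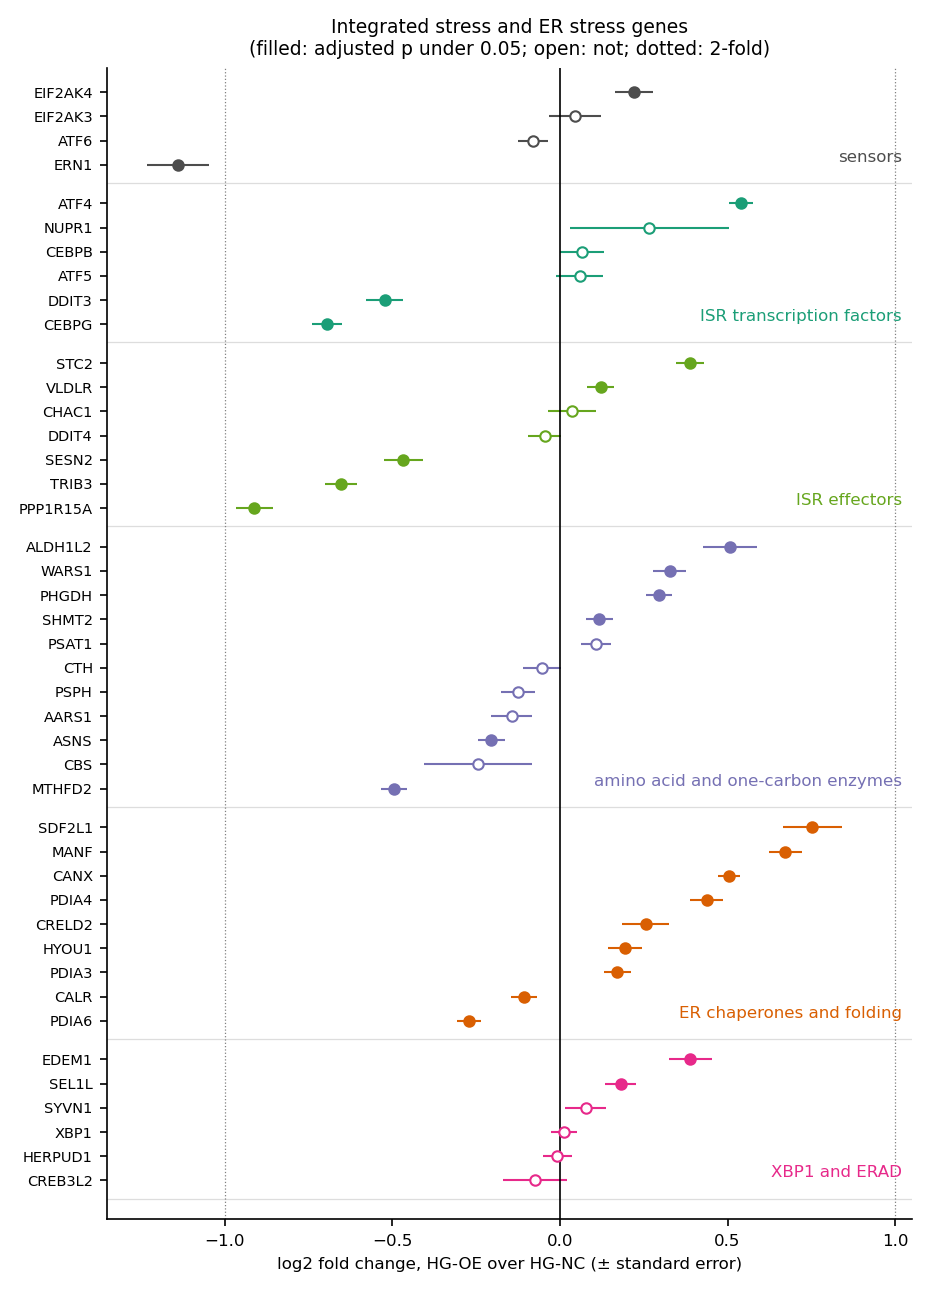
Log2 fold change (HG-OE over HG-NC) of each of the 43 genes on the horizontal axis, with standard errors as bars, grouped by role. Filled points passed an adjusted p under 0.05. ERN1 is the only gene beyond the 2-fold lines, the ER chaperones lie mostly to the right, and the ISR factors and effectors spread to both sides.

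The 4 sensors did not move together. ERN1 fell, EIF2AK4 rose slightly, and EIF2AK3 and ATF6 did not pass the test. ERN1 (ENSG00000178607.17, chr17:64039080-64130819 on GRCh38, minus strand), which encodes IRE1alpha, the kinase and ribonuclease that splices XBP1, read 45.8, 43.7 and 42.0 CPM in HG-NC 1, 2 and 3. Values were 22.7, 20.8 and 16.3 CPM in HG-OE 1, 2 and 3. Every HG-OE library lay below every HG-NC library, and HG-OE 3 was the lowest. The fitted log2 fold change was -1.14 (standard error 0.0927, edgeR adjusted p = 3.20e-07), or 0.454 times the HG-NC level. Left-out libraries moved this between -1.24 and -1.01, the latter without HG-OE 3. On the log2(FPKM + 1) scale, which understates changes of genes at this low level, the difference was -0.67.

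EIF2AK4, the GCN2 kinase that responds to uncharged transfer RNA, read 32.4, 34.9 and 31.8 CPM in HG-NC against 37.2, 38.9 and 39.4 CPM in HG-OE. The groups did not overlap, and the rise was 0.22 on the log2 scale (standard error 0.0560, edgeR adjusted p = 0.00458). EIF2AK3, the PERK kinase, ranged from 23.7 to 29.8 CPM in HG-NC and from 27.2 to 28.7 CPM in HG-OE. Its HG-OE values lay within the HG-NC range, and the 95% interval of its log2 fold change ran from -0.12 to 0.21. ATF6, the membrane-bound factor, averaged 69.7 ± 2.56 CPM in HG-NC against 65.9 ± 0.699 CPM in HG-OE (SD, n = 3 libraries each). Its HG-OE libraries were all slightly lower, and the interval from -0.18 to 0.02 on the log2 scale includes no change, although ATF6 passed as lower against its chromosomal neighbours (given further on).

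Within the ATF4 branch 7 of 24 genes were higher, 7 lower and 10 not passing, with a median log2 fold change of -0.01. These counts lie close to the background, since 29.7% of all genes with a mean of at least 100 counts were higher and 32.2% lower. The transcript of ATF4 itself rose while those of DDIT3 and CEBPG, its partners on DNA, fell. ATF4 (ENSG00000128272.17, chr22:39519695-39522683, plus strand) read 455, 444 and 445 CPM in HG-NC 1, 2 and 3 and 630, 658 and 667 CPM in HG-OE 1, 2 and 3. The groups lay far apart compared with their spread, at a log2 fold change of 0.54 (standard error 0.0363, edgeR adjusted p = 6.16e-08), a 1.454-fold rise. DDIT3 (ENSG00000175197.13, chr12:57516588-57521737, minus strand) encodes CHOP, a factor tied to cell death under lasting stress. It read 162, 159 and 154 CPM in HG-NC against 113, 119 and 99.1 CPM in HG-OE, again without overlap. This is a log2 fold change of -0.52 (standard error 0.0564, edgeR adjusted p = 4.24e-06).

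CEBPG (ENSG00000153879.9, chr19:33373685-33382686, plus strand), a bZIP factor that pairs with ATF4 and whose promoter holds a CARE match above, read 117, 115 and 121 CPM in HG-NC against 76.7, 71.3 and 69.9 CPM in HG-OE. All HG-OE values were lower, with a fitted log2 change of -0.69 (standard error 0.0457, edgeR adjusted p = 5.09e-08). ATF5, a relative of ATF4, averaged 24.2 ± 1.12 CPM in HG-NC against 25.2 ± 1.81 CPM in HG-OE and did not pass. CEBPB, a bZIP factor of inflammation and stress, read 213, 223 and 221 CPM in HG-NC against 248, 242 and 198 CPM in HG-OE. HG-OE 3 lay below all HG-NC libraries while the other two lay above them. With all libraries CEBPB did not pass (log2 fold change 0.07, edgeR adjusted p = 0.432), and without HG-OE 3 it did (0.16, edgeR adjusted p = 0.000342). NUPR1, a small stress-induced chromatin protein, showed the widest spread, with 11.3, 10.8 and 11.8 CPM in HG-NC against 9.82, 9.38 and 21.5 CPM in HG-OE. The high value in HG-OE 3 set the sign of its change, since the log2 fold change was 0.27 with that library and -0.23 without it, neither of them passing.

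**Figure D2:**
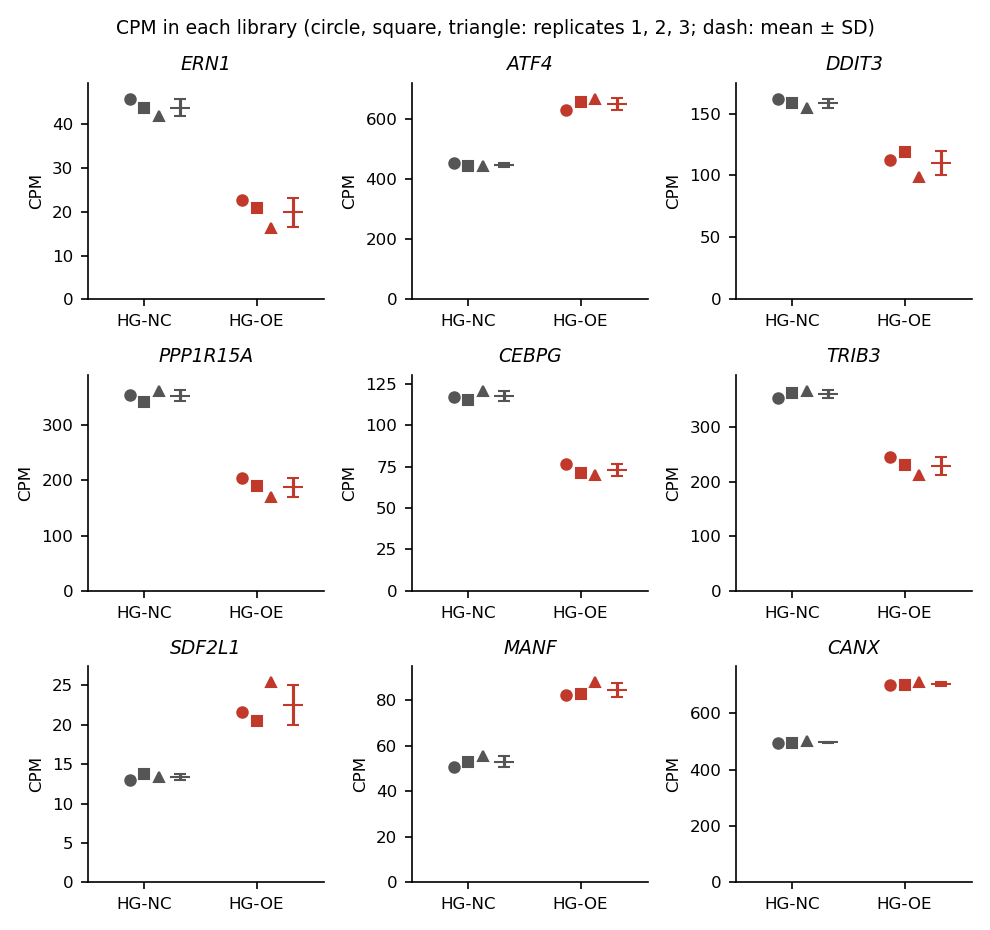
CPM (linear axis from 0) of 9 genes in each library, with grey symbols for HG-NC, red symbols for HG-OE, one symbol shape for each replicate number and a dash with bars for the mean ± SD. In each panel the 3 HG-OE libraries lie on 1 side of the 3 HG-NC libraries, below them for ERN1, DDIT3, PPP1R15A, CEBPG and TRIB3 and above them for ATF4, SDF2L1, MANF and CANX.

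Of the 7 ISR effectors 2 were higher, 3 were lower and 2 did not pass. Across all genes with a mean of at least 100 counts, 29.7% were higher and 32.2% lower. The largest fall of the branch was in PPP1R15A. It (ENSG00000087074.8, chr19:48872212-48876059, plus strand) encodes GADD34, which brings a phosphatase to eIF2alpha and so ends the translational arrest. PPP1R15A read 355, 342 and 362 CPM in HG-NC 1, 2 and 3 and 203, 191 and 169 CPM in HG-OE 1, 2 and 3. The fall was clear of the spread, at a log2 fold change of -0.91 (standard error 0.0564, edgeR adjusted p = 2.73e-08), or 0.532 times the HG-NC level. TRIB3 (ENSG00000101255.12, chr20:362835-397559, plus strand), a pseudokinase that restrains ATF4 and AKT, read 353, 362 and 367 CPM in HG-NC against 245, 232 and 212 CPM in HG-OE. It fell by 0.65 on the log2 scale (standard error 0.0487, edgeR adjusted p = 1.51e-07). SESN2, a leucine sensor upstream of mTORC1, fell from 113 ± 6.76 to 81.4 ± 6.27 CPM (SD, n = 3 libraries each), a log2 fold change of -0.47 (edgeR adjusted p = 1.72e-05). In these 3 genes HG-OE 3 was the lowest library, and all 3 passed without it at log2 fold changes of -0.84, -0.60 and -0.41.

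Other effectors rose or did not pass. STC2, a secreted glycoprotein, read 249, 259 and 248 CPM in HG-NC against 337, 339 and 313 CPM in HG-OE, and its log2 fold change was 0.39 (standard error 0.0417, edgeR adjusted p = 4.20e-06). VLDLR, a lipoprotein receptor under ATF4 control, rose from 92.2 ± 2.28 to 100 ± 1.30 CPM, a small log2 change of 0.12 (edgeR adjusted p = 0.0201) whose call was lost under 3 of the 6 left-out libraries. CHAC1, which degrades glutathione and carries a CARE match, stood at 26.7 to 29.7 CPM in HG-NC against 26.1 to 30.5 CPM in HG-OE. DDIT4, an inhibitor of mTORC1, stood at 208 to 229 CPM and 203 to 224 CPM. The groups overlapped for both, and their 95% intervals on the log2 scale ran from -0.12 to 0.19 and from -0.15 to 0.06.

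Among the 11 enzymes of amino acid supply, one-carbon metabolism and transfer RNA charging, 4 were higher, 2 lower and 5 not passing. Across all genes with a mean of at least 100 counts, 29.7% were higher and 32.2% lower. The 2 steps of mitochondrial one-carbon metabolism encoded by MTHFD2 and ALDH1L2 moved in opposite directions. MTHFD2 (ENSG00000065911.13, chr2:74186172-74217565, plus strand), the folate dehydrogenase of mitochondria, read 341, 324 and 327 CPM in HG-NC against 242, 230 and 232 CPM in HG-OE. The log2 fold change was -0.49 (standard error 0.0389, edgeR adjusted p = 2.35e-07), with no overlap. ALDH1L2, which oxidizes formyl-folate in mitochondria, read 13.3, 13.7 and 14.1 CPM in HG-NC against 20.1, 20.5 and 17.8 CPM in HG-OE, which fitted a log2 change of 0.51 (standard error 0.0804, edgeR adjusted p = 0.000132). SHMT2, the mitochondrial serine hydroxymethyltransferase, went from 368 ± 3.19 to 399 ± 17.6 CPM at 0.12 on the log2 scale (edgeR adjusted p = 0.0230), a call that was lost under 4 of the 6 left-out libraries.

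The serine pathway did not move as a unit. PHGDH, its first enzyme, rose from 269 ± 7.22 to 330 ± 8.93 CPM (log2 fold change 0.30, standard error 0.0385, edgeR adjusted p = 2.37e-05). PSAT1, the second, read 128 to 130 CPM in HG-NC against 131 to 147 CPM in HG-OE, without overlap yet short of the threshold (log2 fold change 0.11, edgeR adjusted p = 0.0572). PSPH, the last, read 92.3 to 99.1 CPM and 82.5 to 92.0 CPM and also fell short (-0.12, edgeR adjusted p = 0.0504). ASNS, the asparagine synthetase and a classical ATF4 target with a CARE match, read 233, 221 and 216 CPM in HG-NC against 191, 193 and 196 CPM in HG-OE. It fell by 0.21 on the log2 scale (standard error 0.0402, edgeR adjusted p = 0.000735). Of the enzymes that make cysteine, CTH averaged 51.2 ± 2.31 and 49.3 ± 2.75 CPM, and CBS only 4.20 ± 0.602 and 3.55 ± 0.425 CPM, and neither passed. The level of CBS is uncertain, since GRCh38 holds a near-identical copy of this gene (CBSL) and only uniquely mapped reads were counted.

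The 2 transfer RNA synthetases differed as well. WARS1, which charges tryptophan, read 345, 350 and 353 CPM in HG-NC against 445, 468 and 402 CPM in HG-OE, with a fitted log2 change of 0.33 (standard error 0.0489, edgeR adjusted p = 8.00e-05). AARS1, which charges alanine, read 140, 145 and 141 CPM in HG-NC against 118, 123 and 144 CPM in HG-OE. HG-OE 3 sat at the HG-NC level and the other HG-OE libraries below it, so AARS1 did not pass with it (log2 fold change -0.14, edgeR adjusted p = 0.0652) and passed without it (-0.23, edgeR adjusted p = 4.69e-06). Of the 4 ATF4-branch genes that carry the CARE letters, ASNS and CEBPG were thus lower, while CHAC1 and AARS1 did not pass.

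The ATF6 branch, made up of ER chaperones and folding enzymes, was the branch in which all genes passed, 7 of 9 higher and 2 lower, where 29.7% of all genes with at least 100 counts were higher and 32.2% lower. Its median log2 fold change was 0.26, against 0.01 over all genes. It was 0.16 without HG-OE 3, with the same 7 genes higher and the same 2 lower, and 0.14 when the median change of each gene's chromosomal neighbours, described further on, was removed. HG-OE 3 was the highest HG-OE library for 8 of the 9 genes, as it was for 34.8% of all tested genes. The part of the hepatocyte and squamous transcripts of that library in these chaperone levels was not tested. The counts of this branch hold for its 9 listed genes. Of 17 other ER chaperones and folding enzymes, 7 were higher and 5 lower.

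SDF2L1 (ENSG00000128228.5, chr22:21642302-21644299, plus strand), a partner of the DNAJ chaperones with an ERSE-II match, read 12.9, 13.8 and 13.3 CPM in HG-NC 1, 2 and 3 and 21.6, 20.5 and 25.4 CPM in HG-OE 1, 2 and 3. This was the largest rise of the 43 genes, at a log2 fold change of 0.75 (standard error 0.0882, edgeR adjusted p = 9.12e-06), and 0.66 without HG-OE 3. MANF (ENSG00000145050.19, chr3:51385291-51389397, plus strand), a secreted ER stress protein, read 50.6, 52.8 and 55.2 CPM in HG-NC against 82.3, 82.6 and 87.8 CPM in HG-OE. It rose by 0.67 on the log2 scale (standard error 0.0489, edgeR adjusted p = 1.20e-07). CANX (ENSG00000127022.16, chr5:179678628-179731641, plus strand) encodes calnexin, the membrane-bound lectin chaperone of new glycoproteins. It read 496, 494 and 501 CPM in HG-NC against 703, 700 and 711 CPM in HG-OE, a tight separation at a log2 fold change of 0.50 (standard error 0.0331, edgeR adjusted p = 5.00e-08).

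PDIA4, a disulfide isomerase, read 158, 173 and 174 CPM in HG-NC against 216, 225 and 241 CPM in HG-OE, which fitted a log2 change of 0.44 (standard error 0.0497, edgeR adjusted p = 6.79e-06). CRELD2, HYOU1 and PDIA3 rose less, by 0.26, 0.19 and 0.17 on the log2 scale (edgeR adjusted p = 0.00806, 0.00548 and 0.00292). CRELD2 is a secreted ER stress protein, HYOU1 a large HSP70-like chaperone and PDIA3 the isomerase that works with calnexin and calreticulin. In each of the 3 the HG-OE libraries all lay above the HG-NC libraries, with HG-OE 3 highest, at 54.4 CPM for CRELD2 against 44.4 and 45.5 CPM in HG-OE 1 and 2.

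The 2 lower genes of the branch were among the most abundant. CALR, calreticulin, the soluble relative of calnexin, read 1537, 1481 and 1482 CPM in HG-NC against 1320, 1395 and 1463 CPM in HG-OE. The groups came close, the log2 fold change was -0.11 (standard error 0.0394, edgeR adjusted p = 0.0355), and 5 of the 6 left-out libraries ended the call. PDIA6, a disulfide isomerase, read 621, 636 and 609 CPM in HG-NC against 515, 521 and 509 CPM in HG-OE, clear of the spread at -0.27 (standard error 0.0347, edgeR adjusted p = 2.00e-05). The calnexin and calreticulin transcripts thus changed in opposite directions. Genes with the ERSE letters were found on both sides, with CANX and CRELD2 higher, CALR and PDIA6 lower and XBP1 not passing. With the neighbours' median removed, as described further on, CANX kept 0.03, CRELD2 -0.05, CALR -0.03 and PDIA6 0.01 on the log2 scale. These changes did not pass by that measure, whereas XBP1 passed as lower at -0.31.

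In the XBP1 branch 2 of 6 genes were higher and 4 did not pass, and the median log2 fold change was 0.04. The share of higher genes is near the background, as 29.7% of all genes with a mean of at least 100 counts were higher. XBP1 (ENSG00000100219.16, chr22:28794555-28800597, minus strand) read 252, 256 and 245 CPM in HG-NC 1, 2 and 3 and 250, 248 and 261 CPM in HG-OE 1, 2 and 3. The groups overlapped, and the 95% interval of the log2 fold change ran from -0.07 to 0.10, beside the marked fall of ERN1, whose product splices this transcript. EDEM1, a lectin that hands glycoproteins to ERAD, read 29.3, 28.8 and 26.0 CPM in HG-NC against 37.0, 34.6 and 38.4 CPM in HG-OE. It rose by 0.39 on the log2 scale (standard error 0.0639, edgeR adjusted p = 0.000177). SEL1L, the scaffold of the HRD1 ligase, rose from 72.8 ± 2.97 to 82.5 ± 2.56 CPM, a log2 fold change of 0.18 (edgeR adjusted p = 0.00488).

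SYVN1, the HRD1 ligase itself, stood at 27.5 to 28.4 CPM in HG-NC against 27.3 to 30.9 CPM in HG-OE and did not pass. HERPUD1, an ERAD component with both a CARE and an ERSE-II match, stood at 79.9 to 82.0 CPM and 78.4 to 83.4 CPM. The 95% interval of its log2 fold change ran from -0.10 to 0.08. CREB3L2, a membrane-bound factor of the ATF6 kind, read 35.0, 38.1 and 37.2 CPM in HG-NC against 31.9, 30.9 and 42.0 CPM in HG-OE. HG-OE 3 lay above and the other HG-OE libraries below the HG-NC range, so CREB3L2 passed only when that library was left out (log2 fold change -0.23, edgeR adjusted p = 0.00205).

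**Figure D3:**
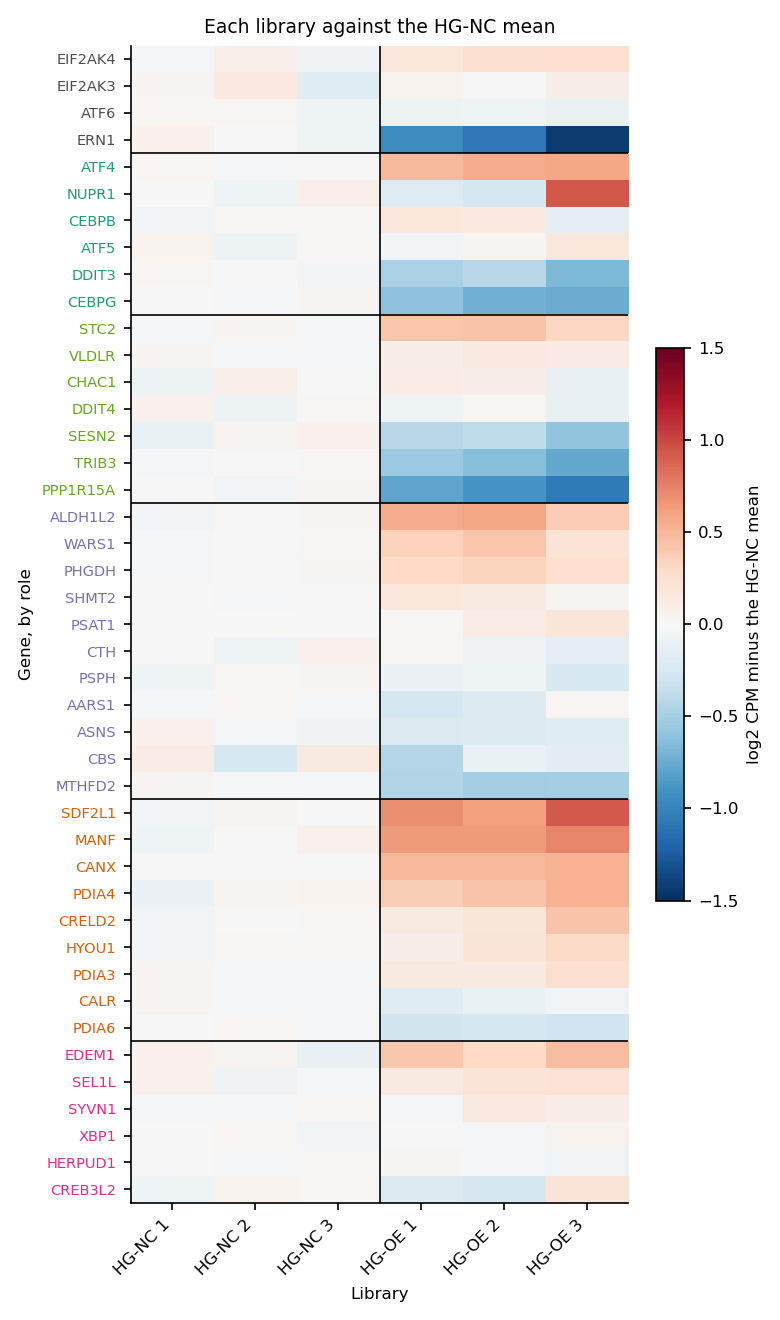
Difference of each library from the HG-NC mean in log2 CPM (red higher, blue lower, colour scale from -1.5 to 1.5) for the 43 genes in rows and the 6 libraries in columns. HG-OE 3 differs from HG-OE 1 and 2 most in NUPR1, and it is the reddest HG-OE column for 8 of the 9 ER chaperones and the bluest for 6 of the 7 ISR effectors.

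In the ATF4, ATF6 and XBP1 branches HG-OE 3 lay further from HG-NC than the other HG-OE libraries, by the median over genes. Over the 24 genes of the ATF4 branch, the median difference from the HG-NC mean was -0.05, -0.01 and -0.11 log2 CPM in HG-OE 1, 2 and 3. Over the 9 genes of the ATF6 branch it was 0.14, 0.19 and 0.43 log2 CPM. Over the 6 genes of the XBP1 branch it was 0.02, 0.07 and 0.15 log2 CPM, and over the 4 sensors -0.01, -0.03 and -0.006. HG-OE 3 was the lowest HG-OE library for 6 of the 7 ISR effectors, as it was for 41.1% of all tested genes.

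Levels can be compared between genes per length, as FPKM. CALR was the most abundant of the 43 at 479 ± 9.27 FPKM in HG-NC and 440 ± 21.3 FPKM in HG-OE (SD, n = 3 libraries each). ATF4 came second at 153 ± 1.93 and 221 ± 5.76 FPKM, ahead of PDIA6 at 136 ± 2.61 and 111 ± 1.19 FPKM. In HG-NC, DDIT3, CEBPB and PPP1R15A followed at 108 ± 2.19, 107 ± 2.85 and 103 ± 3.29 FPKM, and the order of DDIT3 and CEBPB is not resolved beyond their spread. In HG-OE, PPP1R15A had moved from rank 6 to rank 15 and DDIT3 from rank 4 to rank 8, while MANF moved from rank 23 to rank 18. The sensors stood near the bottom, with ATF6 at 4.37 ± 0.141, EIF2AK4 at 2.47 ± 0.116, ERN1 at 2.05 ± 0.0802 and EIF2AK3 at 1.17 ± 0.132 FPKM in HG-NC. In HG-OE, ERN1 stood at 0.917 ± 0.153 FPKM, rank 42 of 43, above CBS only.

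**Figure D4:**
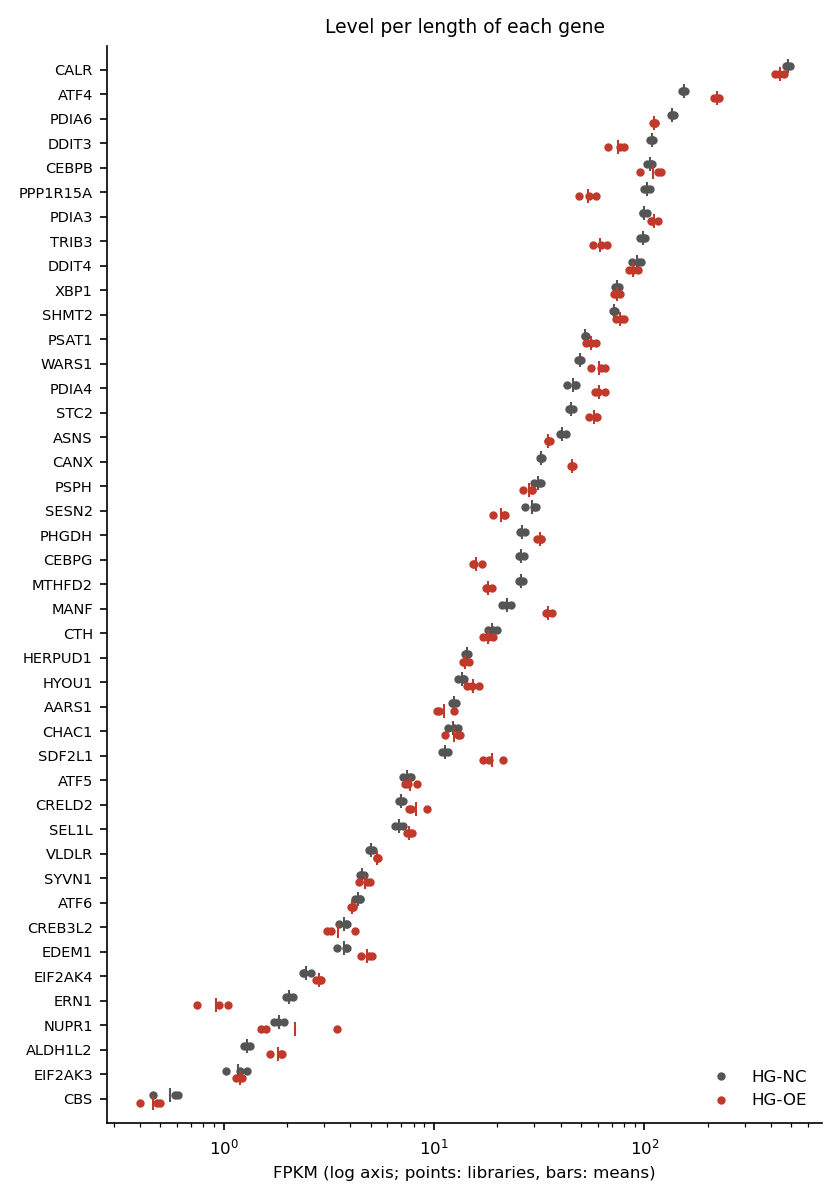
FPKM on a log axis for the 43 genes, ordered by their HG-NC mean, with grey points for HG-NC libraries, red points for HG-OE libraries and bars for the means. The span runs from CBS under 1 FPKM to CALR above 400 FPKM, and the 4 sensors lie near the lower end.

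Changes in these libraries also followed position on the chromosomes. The surroundings of a gene were summarized as the median change of the tested genes less than 10 Mb away that had a mean of at least 50 counts. It lay above 0 for 12 of the 17 higher genes (70.6%) and below 0 for 8 of the 10 lower genes (80.0%), and the same was found across all tested genes (73.3% and 74.1%). Neighbours of CANX had a median of 0.47 and those of MANF 0.53, close to the genes' own changes of 0.50 and 0.67. With the neighbours' median taken off, MANF kept 0.14 and CANX 0.03, whereas SDF2L1 kept 0.46. ERN1 kept -0.85 of its fall, PPP1R15A -0.84, DDIT3 -0.58 and CEBPG -0.53. By this measure 11 of the 17 higher genes and 8 of the 10 lower genes still passed in the same direction, against 70.1% and 69.3% of all called genes. Over all genes with neighbours, 45.6% passed by this measure. By branch, all 7 lower genes of the ATF4 branch still passed, as did 5 of the 7 higher genes of the ATF6 branch, but neither of the higher genes of the XBP1 branch.

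With the neighbours' median removed 8 genes lost their call, 4 gained one and 8 turned their sign. The gained calls were all lower, in ATF6 (-0.17, edgeR adjusted p = 0.00701), PSPH (-0.14, edgeR adjusted p = 0.0333), AARS1 and XBP1. XBP1, level before, came out lower by this measure, at -0.31 (edgeR adjusted p = 2.28e-05), since the genes around it had a median of 0.32. STC2 turned from 0.39 to -0.08, EDEM1 from 0.39 to -0.11, CRELD2 from 0.26 to -0.05 and PDIA6 from -0.27 to 0.01, and none of these passed afterwards. The signs of CEBPB, CTH and SYVN1 turned as well, none of which passed either way. ATF4 kept 0.24 of its 0.54. The part of these regional shifts in the changes of single genes was not tested.

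**Figure D5:**
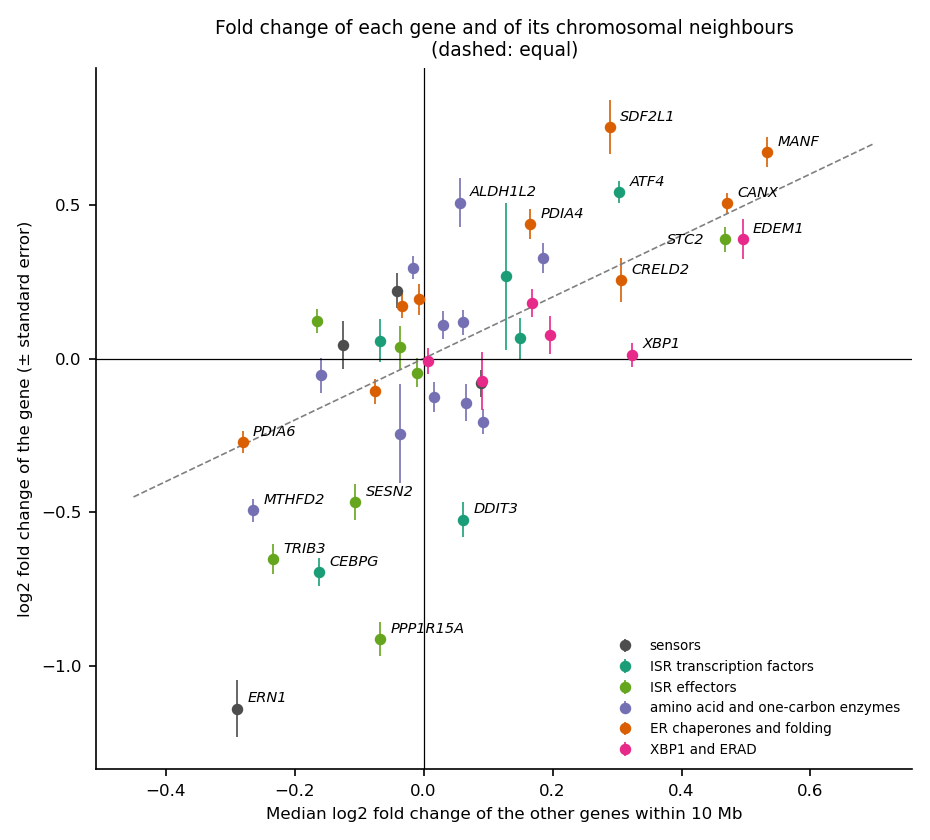
Log2 fold change of each gene (vertical axis, with standard error) against the neighbours' median, within 10 Mb on either side (horizontal axis), coloured by role. CANX, PDIA6 and CRELD2 lie near the dashed line of equal change, while ERN1, PPP1R15A, DDIT3 and CEBPG lie well below it and SDF2L1 well above it.

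A further 99 genes of the same pathways were listed, and 98 of them were tested, with 34 higher, 31 lower and 33 not passing. Among 20 other tested ATF4 targets, 13 were lower and 3 higher, with a median log2 fold change of -0.23. Over all tested genes 25.9% were lower and 25.9% higher. Over genes with a mean of at least 100 counts, as nearly all in these lists have, 32.2% were lower and 29.7% higher. GDF15, a secreted stress cytokine, read 559, 610 and 618 CPM in HG-NC against 276, 271 and 228 CPM in HG-OE, which fitted a log2 change of -1.20 (standard error 0.0636, edgeR adjusted p = 7.10e-09). It was the only one of the 98 to pass with a 2-fold change. INHBE, an activin subunit, ATF3, a bZIP repressor, and SLC7A11, the cystine transporter, fell by 0.94, 0.87 and 0.57 on the log2 scale (edgeR adjusted p = 8.24e-10, 4.12e-07 and 3.01e-07). The neighbours of INHBE had a median of 0.06, those of ATF3 -0.11 and those of SLC7A11 -0.39. JDP2, a bZIP repressor, rose by 0.56 (edgeR adjusted p = 5.70e-06). Of 14 other genes of eIF2 signalling, 5 were higher and 4 lower. PPP1R15B, the constitutive partner of the eIF2alpha phosphatase, fell by 0.62 (edgeR adjusted p = 5.82e-08), as its inducible relative PPP1R15A did above.

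Of 16 other cytosolic transfer RNA synthetases 4 were higher and 2 lower. QARS1, which charges glutamine, read 61.2, 60.3 and 61.7 CPM in HG-NC against 110, 114 and 121 CPM in HG-OE (log2 fold change 0.91, standard error 0.0459, edgeR adjusted p = 4.46e-09). HARS1, which charges histidine, rose by 0.68 (edgeR adjusted p = 5.85e-08). The neighbours of QARS1 had a median of 0.53 and those of HARS1 0.29. Other ER chaperones and folding enzymes were split, 7 of 17 higher and 5 lower, and had a median of 0.03. In the 31 other genes of ERAD and translocation, 15 were higher and 7 lower, with a median of 0.16. Of all genes with a mean of at least 100 counts, 29.7% were higher and 32.2% lower. WFS1, the wolframin of the ER membrane, and SPCS1, a signal peptidase subunit, rose by 0.56 and 0.55 (edgeR adjusted p = 1.92e-05 and 1.35e-07), and the neighbours of SPCS1 had a median of 0.53.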

How the data were processed

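HK-2 cells in 30 mM glucose were profiled by directional poly(A) RNA-seq in 3 HG-NC and 3 HG-OE libraries. Reads were trimmed and mapped to GRCh38 by HISAT2, and the authors deposited the counts of uniquely mapped reads per gene, without normalization. Whether the counting used strand is not given in the sources used here. The authors also deposited FPKM values made from such counts. The methods name ComBat_seq for batch correction but no batches, and whether it entered these counts is not given in the sources used here. Groups came from the labels.

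Counts were fitted in edgeR 4.0.16 (R 4.3.3) with TMM scaling and the default low-count filter, which kept 17142 of 31831 genes. The quasi-likelihood test compared HG-OE with HG-NC, Benjamini-Hochberg adjustment ran over all tested genes, and standard errors come from this fit. The biological coefficient of variation was 0.0683. An exact two-sided permutation test of 3 against 3 libraries cannot go below p = 0.1. Gene positions came from GENCODE on GRCh38. Neighbours were other tested genes within 10 Mb with a mean of at least 50 counts, and their median was subtracted from the log2 fold change. The difference was tested by a t-test with the edgeR standard error, which leaves out the uncertainty of the median. Promoter windows are those of RefSeq (GRCh38.p14). No amino acid sequences were used. The fit was tried on simulated counts in which few genes changed and no regional shifts were built in. That trial therefore does not cover these features of the data.

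All 43 genes are named, and of the other pathway genes the 5 largest rises and 5 largest falls among those past adjusted p = 0.05, without overlap and with a mean of at least 100 counts. The genes, the lists and the tests were chosen with earlier results of these data known. Alternatives were DESeq2 1.42.0 (size factors, Wald test), other low-count filters, limma 3.58.1 on log2 FPKM, glmTreat, a block for the replicate number, 1 library left out at a time and the neighbours' median removed. The osmotic control libraries were not analysed here.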

Additional observations from a re-analysis of the deposited data

How the results depend on the processing

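ERN1 was the 1 gene called with a 2-fold change in every count fit, and 0 were called so by limma on log2(FPKM + 1), with or without a filter on low values, or with the neighbours' median removed. The 17 higher genes became 11 with the neighbours' median removed and 8 against a fold of 1.2 (glmTreat), where 7 of the 10 lower genes remained. Left-out libraries gave 15 to 18 higher and 9 to 12 lower genes. The median log2 fold change of the XBP1 branch went from 0.04 to -0.11 with the neighbours' median removed, and the signs of STC2 (-0.081), PDIA6 (0.0093), CRELD2 (-0.052), XBP1 (-0.31) and EDEM1 (-0.11) turned, as did those of CEBPB, CTH and SYVN1, which passed neither way. The median of the ATF6 branch went from 0.26 to 0.14. Among the called genes, only VLDLR, SHMT2 and CALR lost their call under left-out libraries. CRELD2 lost it with the neighbours' median removed, and EIF2AK4 and HYOU1 in at least 1 of the other settings. PSPH and PSAT1 lie just outside the threshold. The replicate numbers did not pair the libraries, since deviations of same-numbered libraries correlated at -0.03, 0.03 and -0.001. With the number as a block, 17 genes were higher, 11 lower and 1 changed 2-fold. The cause of these differences was not tested. With 3 libraries a group the spread between libraries limits most of these genes, and for those with the fewest counts, such as CBS at a mean of 108, counting error adds to it.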
